A study of Homo sapiens with 23 samples.

Results

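The genes described here are 54 components of the DNA replication fork and of the ATR pathway upstream of the checkpoint kinase CHK1, taken by their symbols from 21658 genes measured by RNA-seq. They were grouped by role into 6 genes of origin recognition and licensing, the 6 subunits of the MCM2-7 helicase, 9 genes of helicase activation and origin firing, the 3 subunits of RPA, 5 genes of the sliding clamp and its loader, 9 genes of the polymerases and the lagging strand, 11 genes of ATR signalling, 4 genes of fork restart and remodelling, and CHEK2. All 54 were in the table and all were tested, since no filter on low values was applied.

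Replication origins are licensed in G1, when the origin recognition complex, CDC6 and CDT1 load the MCM2-7 ring onto DNA, and geminin (GMNN) then blocks CDT1 so that no origin is licensed again. In S phase the kinase CDC7 with DBF4, and the loading factors TICRR, TOPBP1 and MCM10, turn the ring into an active helicase by joining it with CDC45 and the GINS complex. Single-stranded DNA exposed at a slowed fork is coated by RPA, which recruits ATR through ATRIP, and ATR then phosphorylates CHK1 with the help of TOPBP1 or ETAA1, the RAD17 loader, the 9-1-1 clamp (RAD9A, HUS1, RAD1) and claspin (CLSPN). CHK1 restrains further origin firing, and prexasertib inhibits CHK1 and, less strongly, CHK2.

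The libraries came from 4 established ovarian cancer cell lines, Kuramochi, OVSAHO, OV-90 and EFO-21, each as the parental line and as a prexasertib-resistant derivative obtained by prolonged growth in rising drug concentrations. Each group had 3 libraries described as biological replicates, except parental OV-90 with 2, which gave 23 libraries. The sources do not say whether a resistant line was 1 clone, nor whether the drug was present when RNA was taken. The question addressed was how the resistant lines differ from their parents in the machinery on which CHK1 inhibition acts.

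Every one of the 23 libraries correlated best with a library of its own group. Library numbers 2 to 12 belong to parental and 13 to 24 to resistant cells, and no source says what the number stands for. The lowest correlation within a group, 0.9524, was between the parental OV-90 libraries 2 and 3, against 0.9711 or more in every other group. PAX8, a lineage factor of serous ovarian carcinoma, had a mean deposited log2 value of 8.44 to 9.37 in parental Kuramochi, OVSAHO and EFO-21 but 2.10 in parental OV-90, where the epithelial gene EPCAM stood at 12.30. Of 8 markers of ovarian carcinoma epithelium, 7 were lower in resistant Kuramochi, 7 in OVSAHO, 3 in OV-90 and 6 in EFO-21, and none was higher. The shares of all genes called lower (adjusted p under 0.05) were 23.3%, 16.2%, 17.9% and 23.4% in that order. Some of these falls were at low values, as for MUC16 in Kuramochi (2.48 to 0.16). In EFO-21 the same held for WT1 (1.03 to 0.04) and KRT7 (2.76 to 1.94). EPCAM fell by 3.78 on the log2 scale in Kuramochi and fell by 3.01 in OVSAHO. The part of this in the results that follow was not tested. In bulk RNA, a larger share of cells in S phase and more RNA per cell cannot be told apart.

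Many replication genes are driven by E2F transcription factors, so the promoters were searched for 4 E2F words (TTTGGCGC, TTTCCCGC, TTTCGCGC and TTTGCCGC, on either strand) in RefSeq windows of 300 bases on GRCh38.p14, from 250 bases before to 50 after a start site. Of the 48 genes with a window, 22 (45.8%) held a word in at least 1 window. Per window this was 34.4% of 64 windows, against 3.31% of all 35116 windows. The CHR words TTTGAA and TTCGAA, of the kind bound in genes that peak in G2/M, stood in 9.38% of the windows of these genes and in 16.4% of all. The genes MCM4, MCM5, GINS4, RPA2, RPA3 and HUS1 had no entry. The stretches printed here show the most upstream word with 20 bases on each side, for MCM2-7 genes that held one and for genes with a word that were called in opposite directions in different lines. MCM2 and MCM8 also belong to this set but are not printed, because their word lies after the start site. Each sequence runs 5′ to 3′ on the strand of its gene, and capitals mark the E2F words, which overlap on both strands in MCM6. A match describes letters in the window and is not evidence of a bound factor.
GMNN (chr6:24775313-24775360, plus strand): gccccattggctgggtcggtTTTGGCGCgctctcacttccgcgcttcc
MCM3 (chr6:52284889-52284936, minus strand): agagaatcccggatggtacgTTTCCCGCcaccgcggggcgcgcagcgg
MCM6 (chr2:135876564-135876615, minus strand): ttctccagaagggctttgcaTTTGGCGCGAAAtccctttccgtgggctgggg
MCM7 (chr7:100101557-100101604, minus strand): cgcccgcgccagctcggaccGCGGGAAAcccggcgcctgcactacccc
GINS2 (chr16:85688958-85689005, minus strand): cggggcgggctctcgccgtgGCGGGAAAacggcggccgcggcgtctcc
PCNA (chr20:5126654-5126701, minus strand): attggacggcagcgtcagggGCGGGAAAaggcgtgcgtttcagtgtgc
RFC3 (chr13:33818074-33818121, plus strand): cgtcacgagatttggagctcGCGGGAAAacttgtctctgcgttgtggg
POLE2 (chr14:49688192-49688239, minus strand): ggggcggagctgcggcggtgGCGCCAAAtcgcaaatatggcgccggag
LIG1 (chr19:48170431-48170478, minus strand): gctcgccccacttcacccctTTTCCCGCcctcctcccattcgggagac

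Calls for a higher level outnumbered calls for a lower one in resistant OVSAHO and EFO-21, and the calls went both ways in resistant Kuramochi and OV-90. A gene is called higher or lower here when limma gave an adjusted p under 0.05 over all 21658 genes. In resistant OVSAHO 28 of the 54 genes were called higher, against 17.1% of all genes, and 4 lower, against 16.2% of all genes. In resistant EFO-21 31 were called higher, against 25% of all genes, and 6 lower, against 23.4%. In resistant Kuramochi 8 were called higher and 10 lower, where the shares of all genes were 23.6% and 23.3%. In resistant OV-90 7 were called higher and 14 lower, with 18.1% and 17.9% of all genes. Not called were 22 genes in OVSAHO, 17 in EFO-21, 36 in Kuramochi and 33 in OV-90. Of the 21 OV-90 calls, 21 were lost without resistant library 13 and 20 without library 14 or 15, MCM5 being the call kept without library 14 or 15.

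Read as shares of the 54, these counts are 51.9% higher in OVSAHO and 57.4% higher in EFO-21, above the shares of all genes, and 14.8% higher in Kuramochi and 13% higher in OV-90, below them. Calls lower made up 7.41% in OVSAHO, 11.1% in EFO-21 and 18.5% in Kuramochi, below the shares of all genes. In OV-90 they made up 25.9%, above the 17.9% of all genes. The median change of the 54 genes, as the log2 difference resistant minus parental, was 0.21 in OVSAHO, 0.28 in EFO-21, -0.06 in Kuramochi and 0.02 in OV-90, where the median of all genes was 0.00, 0.01, -0.02 and -0.06. In OVSAHO 43 of the 54 differences were above 0 and in EFO-21 45, against 22 in Kuramochi and 30 in OV-90. The lower calls were few in OVSAHO and EFO-21 and depended on single libraries. OVSAHO had 2 without parental library 7 and 1 without parental library 8, resistant library 20 or resistant library 21, and EFO-21 had 3 without parental library 10 or 12.

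Most of these changes were below 2-fold. A called change of at least 2-fold was seen for none of the 54 genes in OVSAHO, where 7.76% of all genes reached it, and for none in EFO-21, where 14.3% did. PRIMPOL alone reached it in Kuramochi, against 22.5% of all genes. In OV-90 the 5 genes MCM4, GINS1, GINS4, RFC3 and CDC45 did, against 16.1% of all genes. All genes here include weakly expressed ones, and no share was taken at matched expression. The changes of single genes ranged from -0.39 to 0.76 in OVSAHO and from -0.55 to 0.94 in EFO-21, and more widely in Kuramochi (-0.91 to 1.20) and OV-90 (-1.04 to 1.37).

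**Figure D1:**
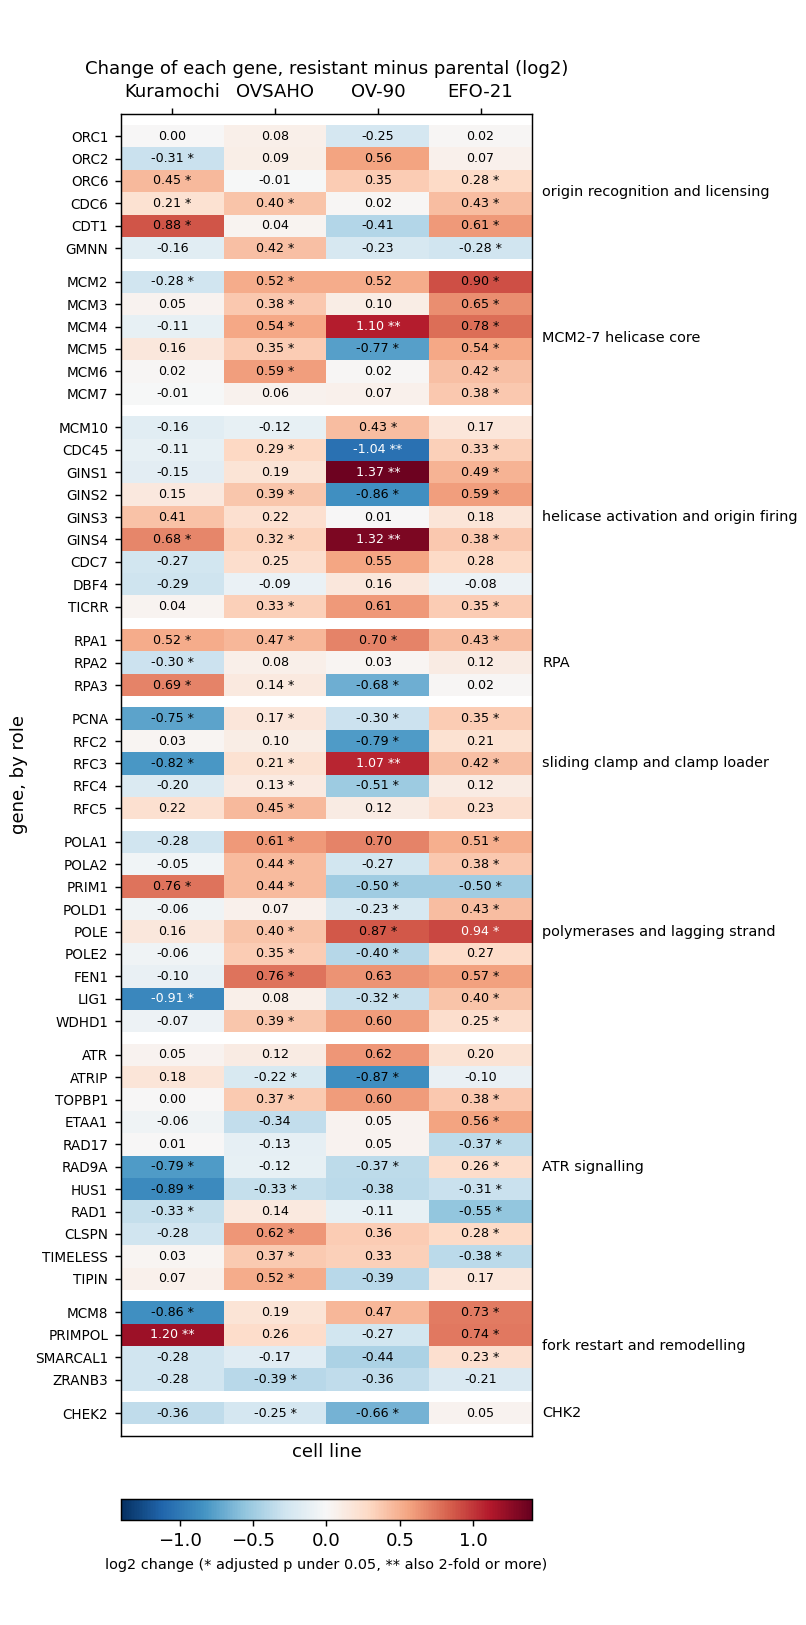
Log2 change, resistant minus parental, of each of the 54 genes (rows, grouped by role) in each cell line (columns), with 1 star for an adjusted p under 0.05 in limma and 2 stars for a called change of 2-fold or more. The OVSAHO and EFO-21 columns are mostly red, with 28 and 31 genes called higher, while Kuramochi and OV-90 hold both colours and the 6 changes with 2 stars.

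RPA1, the large subunit of the single-strand DNA binding complex RPA, was higher in all 4 resistant lines, as were 0.628% of all genes. Its deposited log2 values were 9.18, 9.27 and 9.37 in parental and 9.71, 9.83 and 9.84 in resistant Kuramochi, and 8.45, 8.50 and 8.57 in parental and 8.96, 8.98 and 9.01 in resistant OVSAHO. In OV-90 they were 8.29 and 8.75 against 9.17, 9.22 and 9.27, and in EFO-21 9.15, 9.22 and 9.23 against 9.59, 9.61 and 9.68. No resistant library overlapped the parental libraries of its line. The changes were 0.52 ± 0.07 (SE) in Kuramochi, 0.47 ± 0.04 in OVSAHO, 0.70 ± 0.15 in OV-90 and 0.43 ± 0.04 in EFO-21, that is 1.43-, 1.39-, 1.62- and 1.34-fold, with adjusted p of 0.00171, 0.000788, 0.0289 and 0.000373. The OV-90 call was lost without resistant library 13 (adjusted p = 0.103), 14 (0.0878) or 15 (0.107) and with a weight for each group's spread (0.0514). The test of a difference between the lines was not past its threshold for RPA1 (adjusted p = 0.206). Averaged over the lines, with the 23 libraries and not the lines as replicates, the change was 0.52 ± 0.05 (adjusted p = 6.24e-07). RPA1 lies at chr17:1732996-1803376 on the plus strand of GRCh37.

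The other RPA subunits did not follow RPA1. RPA2, the subunit phosphorylated under replication stress, was lower in resistant Kuramochi (8.52, 8.53 and 8.61 against 8.72, 8.88 and 8.95 in the parental libraries, change -0.30 ± 0.08, adjusted p = 0.0186), and its differences in the other lines lay between 0.03 and 0.12 with no call. The Kuramochi call for RPA2 was lost without parental library 5 (adjusted p = 0.0645) or 6 (0.051) or resistant library 16 (0.0696) or 17 (0.0666). RPA3, the smallest subunit, was higher in Kuramochi (0.69 ± 0.13) and OVSAHO (0.14 ± 0.03) and lower in OV-90 (-0.68 ± 0.15), with 0.02 ± 0.06 in EFO-21.

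The MCM2-7 helicase subunits rose together in EFO-21 and nearly so in OVSAHO. All 6 were called higher in EFO-21 and 5 of 6 in OVSAHO, with median differences of 0.60 and 0.45, while 1 was called lower and none higher in Kuramochi and 1 was called each way in OV-90. MCM2 had 9.68, 9.78 and 9.81 in parental and 10.61, 10.64 and 10.71 in resistant EFO-21, a change of 0.90 ± 0.05 (1.86-fold, adjusted p = 6.10e-05). In OVSAHO it went from 10.29, 10.35 and 10.37 to 10.84, 10.87 and 10.87 (0.52 ± 0.03, adjusted p = 0.000293). The groups were far apart in both lines compared with their spread.

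In Kuramochi MCM2 was lower, with 9.54, 9.64 and 9.67 against 9.81, 9.87 and 10.01 (-0.28 ± 0.07, adjusted p = 0.0186), and this call was lost without resistant library 17 (adjusted p = 0.0531) or 18 (0.0622) and without the mean-variance trend (0.0569). In OV-90 the resistant libraries had 9.78, 9.82 and 9.92 against 9.0 and 9.64 for parental MCM2, a difference of 0.52 ± 0.20 that was not called (adjusted p = 0.0998). It passed the threshold against parental library 2 alone (0.84, adjusted p = 0.00443) and with the 23 libraries in one fit (0.00103). The range of the 4 MCM2 changes was 1.18 and they differed between lines (adjusted p = 9.97e-06).

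MCM4 rose in 3 lines. It changed by 0.54 ± 0.05 in OVSAHO (8.65, 8.72 and 8.84 to 9.24, 9.27 and 9.29), by 0.78 ± 0.06 in EFO-21 (8.69, 8.83 and 8.90 to 9.55, 9.56 and 9.66) and by 1.10 ± 0.26 in OV-90 (8.01 and 8.84 to 9.45, 9.51 and 9.61), with adjusted p of 0.00137, 0.000257 and 0.0345. In Kuramochi the groups overlapped, 9.71 to 10.12 against 9.59 to 9.86. Parental Kuramochi held the highest parental level of MCM4, 9.85 ± 0.23 (SD, n = 3), and parental OV-90 the lowest mean, 8.42 ± 0.59 (n = 2). That lowest rank rests on parental library 2 (8.01). Library 3 (8.84) was above the parental means of OVSAHO (8.73) and EFO-21 (8.81).

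MCM5 was called higher in OVSAHO (0.35 ± 0.03) and EFO-21 (0.54 ± 0.04) but lower in OV-90 (-0.77 ± 0.06, adjusted p = 0.00562), where the difference was -0.76 against parental library 3 alone and -0.77 against parental library 2 alone. MCM3 (0.38 and 0.65) and MCM6 (0.59 and 0.42) were called higher in OVSAHO and EFO-21 and differed by 0.10 or less in the other lines, with no call. MCM7 was called in EFO-21 alone, at 9.96, 9.98 and 10.01 against 10.34, 10.36 and 10.37 in the resistant libraries (0.38 ± 0.03, adjusted p = 0.000168). Elsewhere its differences were between -0.01 and 0.07, and the changes differed between lines (adjusted p = 0.0008).

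**Figure D2:**
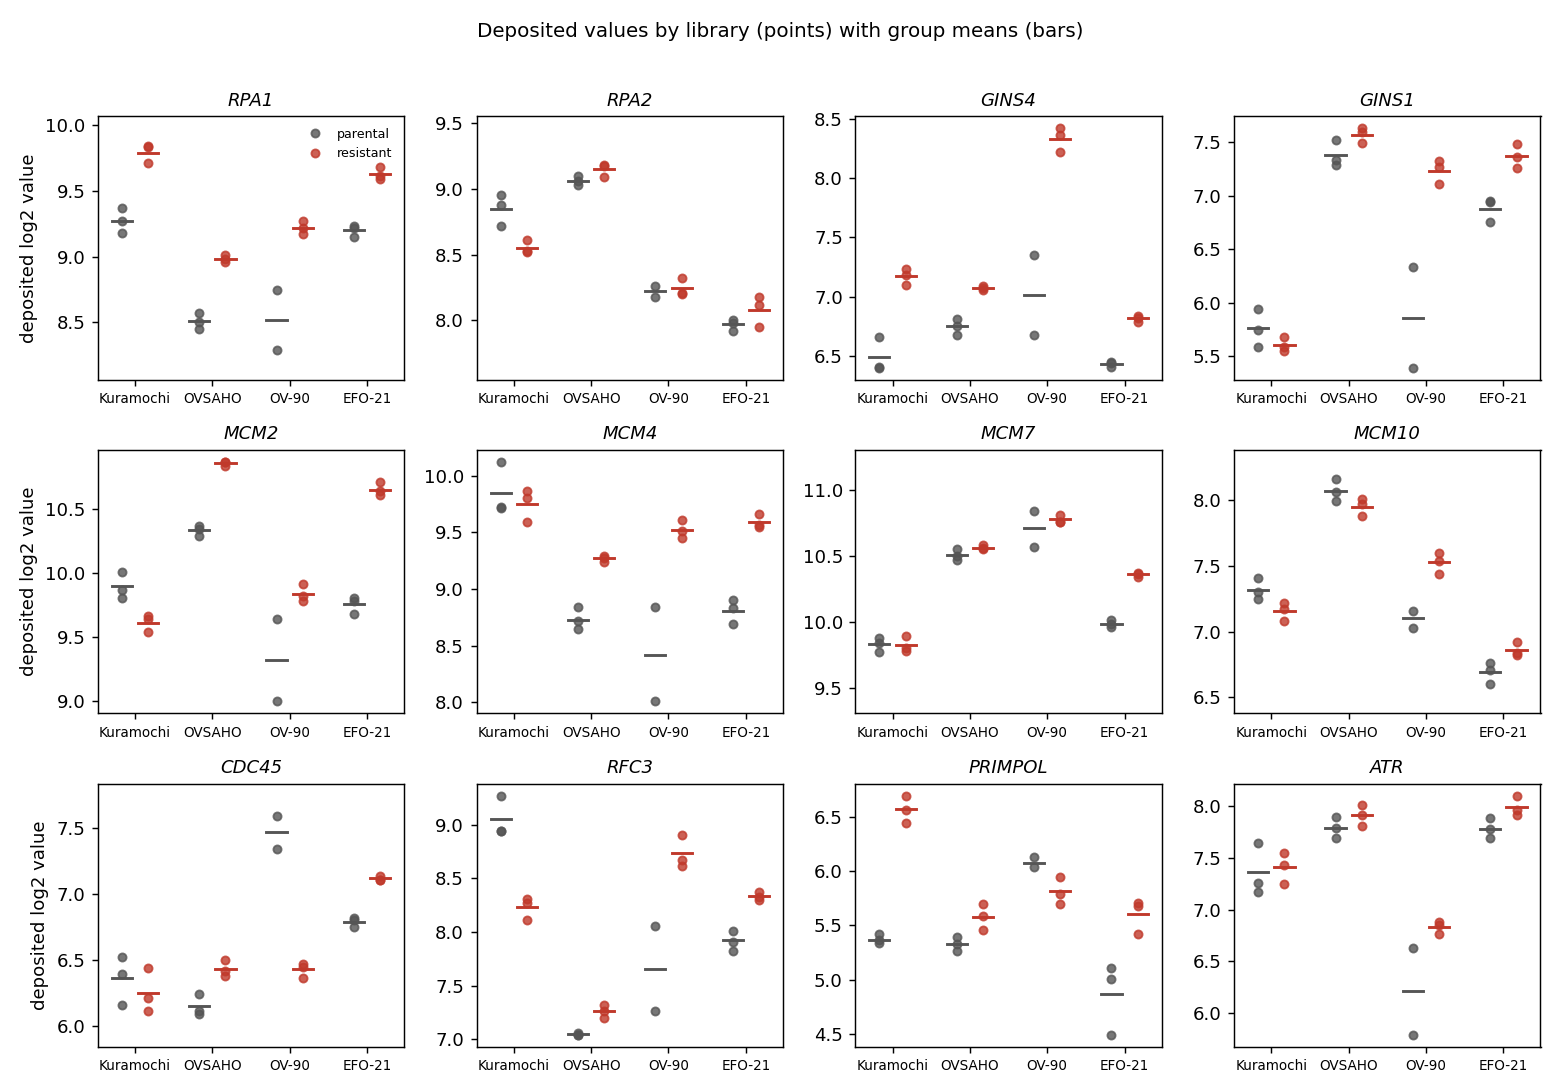
Deposited log2 value (vertical axis, a different range in each panel) of 12 genes in each of the 23 libraries, by cell line, with parental libraries in grey, resistant ones in red and a bar at each group mean. RPA1 is higher in the resistant libraries of every line, and the 2 parental OV-90 libraries lie apart for RPA1, GINS1, GINS4, MCM2, MCM4, RFC3 and ATR but not for RPA2, MCM10 or PRIMPOL.

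Among the genes that activate the helicase, GINS4, a subunit of the GINS complex, was the other gene called higher in all 4 lines. Its parental and resistant values were 6.40, 6.41 and 6.66 against 7.10, 7.18 and 7.23 in Kuramochi, 6.68, 6.75 and 6.81 against 7.06, 7.07 and 7.09 in OVSAHO, 6.68 and 7.35 against 8.22, 8.36 and 8.42 in OV-90, and 6.41, 6.44 and 6.45 against 6.79, 6.82 and 6.84 in EFO-21. The groups did not overlap in any line. The changes were 0.68 ± 0.10, 0.32 ± 0.05, 1.32 ± 0.22 and 0.38 ± 0.05 in that order, with adjusted p of 0.00249, 0.00703, 0.0197 and 0.00196, and they differed between lines (adjusted p = 0.000207). The OV-90 call was lost without resistant library 13 (0.0873), 14 (0.0727) or 15 (0.0887).

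The other GINS subunits went different ways. GINS1 was higher in OV-90 (5.39 and 6.33 to 7.11, 7.27 and 7.32, change 1.37 ± 0.30, 2.59-fold, adjusted p = 0.0304) and in EFO-21 (6.75, 6.94 and 6.95 to 7.26, 7.36 and 7.48, change 0.49 ± 0.09), with -0.15 ± 0.14 in Kuramochi and 0.19 ± 0.08 in OVSAHO. GINS2 was lower in OV-90 (-0.86 ± 0.12) and higher in OVSAHO (0.39 ± 0.06) and EFO-21 (0.59 ± 0.05). GINS3 was called in no line, with differences from 0.01 to 0.41.

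CDC45, which with GINS completes the active helicase, fell in OV-90 from 7.34 and 7.59 to 6.36, 6.45 and 6.47. The change was -1.04 ± 0.12 (adjusted p = 0.0117), the only called fall of 2-fold or more among the 54 genes. In EFO-21 CDC45 was higher (6.75, 6.80 and 6.82 to 7.11, 7.11 and 7.14, change 0.33 ± 0.05, adjusted p = 0.00215), and in OVSAHO it was higher by 0.29 ± 0.07 (adjusted p = 0.0318), a call lost without parental library 8 (0.0959) or 9 (0.0701) or any single resistant library (0.0685 to 0.089). In Kuramochi the groups overlapped.

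MCM10, which acts late in helicase activation, was called in OV-90 only, at 7.03 and 7.16 against 7.44, 7.54 and 7.60 (0.43 ± 0.10, adjusted p = 0.0312). Its OV-90 call was lost without any 1 resistant library (adjusted p from 0.0892 to 0.122), and its OV-90 difference was 0.36 against parental library 3 alone. Its differences elsewhere were -0.16 in Kuramochi, -0.12 in OVSAHO and 0.17 in EFO-21, and the 4 changes differed (adjusted p = 0.000219). After correction for transcript length and GC the calls for MCM10 changed, to lower in Kuramochi (-0.18, adjusted p = 0.0409) and OVSAHO (-0.24, 0.00705), higher in EFO-21 (0.19, 0.0253) and none in OV-90. TICRR was higher in OVSAHO (0.33 ± 0.10, adjusted p = 0.0448) and EFO-21 (0.35 ± 0.08), and CDC7 and DBF4, the kinase pair that fires origins, were called in no line.

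Of the genes that recognise and license origins, CDC6 was higher in 3 lines (0.21 ± 0.05 in Kuramochi, 0.40 ± 0.05 in OVSAHO and 0.43 ± 0.07 in EFO-21) with 0.02 ± 0.06 in OV-90. CDT1 was higher in Kuramochi (0.88 ± 0.11, adjusted p = 0.000967) and EFO-21 (0.61 ± 0.05, adjusted p = 0.000283), with 0.04 in OVSAHO and -0.41 in OV-90. Geminin (GMNN), the inhibitor of CDT1, was higher in OVSAHO (0.42 ± 0.08) and lower in EFO-21 (-0.28 ± 0.07). ORC6 was higher in Kuramochi (0.45 ± 0.07) and EFO-21 (0.28 ± 0.04), ORC2 was lower in Kuramochi (-0.31 ± 0.10), and ORC1 was called in no line. None of these 6 genes was called in OV-90, but with the 23 libraries in one fit ORC1, ORC2, ORC6, CDT1 and GMNN were (adjusted p from 0.00114 to 0.042), and after correction for transcript length and GC ORC1 (-0.32, 0.0477), ORC6 (0.44, 0.0464) and CDC6 (-0.29, 0.0435) were.

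Of the sliding clamp and loader genes, PCNA, RFC3 and RFC4 were called in opposite directions in different lines, and RFC2 and RFC5 were not. PCNA, the clamp that tethers polymerases to DNA, was lower in Kuramochi (-0.75 ± 0.07, adjusted p = 0.00035) and OV-90 (-0.30 ± 0.07, adjusted p = 0.0365) and higher in OVSAHO (0.17 ± 0.03, adjusted p = 0.00793) and EFO-21 (0.35 ± 0.08, adjusted p = 0.0131). After correction for length and GC the OV-90 call of PCNA was lost (-0.17, adjusted p = 0.137). RFC3, a subunit of the clamp loader, had the widest range of changes of all 54 genes, 1.90. It fell in Kuramochi from 8.94, 8.94 and 9.27 to 8.11, 8.27 and 8.31 (-0.82 ± 0.11, adjusted p = 0.00153) and rose in OV-90 from 7.26 and 8.05 to 8.61, 8.67 and 8.90 (1.07 ± 0.26, adjusted p = 0.0364). These groups did not overlap in either line.

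In EFO-21 RFC3 rose from 7.82, 7.91 and 8.01 to 8.30, 8.32 and 8.37 (0.42 ± 0.06, adjusted p = 0.00176). In OVSAHO RFC3 went from 7.04, 7.04 and 7.06 to 7.20, 7.26 and 7.32 (0.21 ± 0.05, adjusted p = 0.0229), a call lost with the 23 libraries in one fit (0.29), after correction for length and GC (0.15, adjusted p = 0.0513) and without parental library 7 (0.0627) or 8 (0.0729) or resistant library 19 (0.0607) or 21 (0.0744). RFC2 (-0.79 ± 0.16) and RFC4 (-0.51 ± 0.07) were lower in OV-90. In OVSAHO RFC5 was higher (0.45 ± 0.06), and RFC4 was higher close to the threshold (0.13 ± 0.04, 1.09-fold, adjusted p = 0.0491). The table does not say how reads shared between PCNA or CHEK2 and their pseudogenes were assigned.

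Of the 9 polymerase and lagging-strand genes, 7 were called higher in OVSAHO and 7 in EFO-21, against 1 in Kuramochi and 1 in OV-90. POLE, the catalytic subunit of the leading-strand polymerase, was higher in OVSAHO (0.40 ± 0.06), OV-90 (0.87 ± 0.23) and EFO-21 (0.94 ± 0.06, 1.92-fold, adjusted p = 0.000125). The OV-90 call of POLE was lost after correction for transcript length and GC (0.56, adjusted p = 0.0752), and the difference was 1.23 against parental library 2 alone and 0.51 against library 3 alone. FEN1, the nuclease that trims Okazaki fragments, was higher in OVSAHO (0.76 ± 0.07, 1.69-fold) and EFO-21 (0.57 ± 0.08), and so were the primase-polymerase subunits POLA1 (0.61 and 0.51) and POLA2 (0.44 and 0.38) and the fork-coupling factor WDHD1 (0.39 and 0.25). The WDHD1 call in EFO-21 was close to the threshold (adjusted p = 0.0464).

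LIG1, the ligase that joins Okazaki fragments, fell in Kuramochi by 0.91 on the log2 scale (SE 0.07, adjusted p = 0.000165) and in OV-90 by 0.32 (SE 0.06), and rose in EFO-21 (0.40 ± 0.05). PRIM1, the catalytic primase subunit, was higher in Kuramochi (0.76 ± 0.15) and OVSAHO (0.44 ± 0.06) and lower in OV-90 (-0.50 ± 0.09) and EFO-21 (-0.50 ± 0.08). POLD1, of the lagging-strand polymerase, was higher in EFO-21 (0.43 ± 0.05) and lower in OV-90 (-0.23 ± 0.06), and POLE2 was higher in OVSAHO (0.35 ± 0.08) and lower in OV-90 (-0.40 ± 0.10). After correction for length and GC the OV-90 calls of POLD1 (-0.09, adjusted p = 0.346) and LIG1 (-0.22, 0.069) were lost.

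ATR itself was called in no line. Its values were 7.17, 7.26 and 7.64 against 7.25, 7.43 and 7.55 in Kuramochi, 7.69, 7.79 and 7.89 against 7.81, 7.91 and 8.01 in OVSAHO, 5.79 and 6.63 against 6.76, 6.85 and 6.88 in OV-90, and 7.69, 7.78 and 7.88 against 7.91, 7.96 and 8.10 in EFO-21. The groups overlapped in Kuramochi and OVSAHO but not in OV-90 or EFO-21, where the differences were 0.62 ± 0.27 (adjusted p = 0.129) and 0.20 ± 0.07 (adjusted p = 0.0615). The EFO-21 difference passed the threshold without parental library 12 (0.25, adjusted p = 0.0497) and after correction for transcript length and GC (0.22, adjusted p = 0.0224). In OV-90 the difference was 1.04 against parental library 2 alone and 0.20 against parental library 3 alone. With the 23 libraries in one fit the OV-90 difference was past the threshold (adjusted p = 0.00606).

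Across the 11 ATR signalling genes the calls were mixed, with 4 higher and 2 lower in OVSAHO, 4 and 4 in EFO-21, 0 and 3 in Kuramochi and 0 and 2 in OV-90. ATRIP, the partner that brings ATR to RPA, was lower in OVSAHO (-0.22 ± 0.06) and OV-90 (-0.87 ± 0.21). The OV-90 difference of ATRIP was -0.59 against parental library 3 alone. The ATR activator TOPBP1 was higher in OVSAHO (0.37 ± 0.07) and EFO-21 (0.38 ± 0.05), and ETAA1, the activator bound to RPA, was higher in EFO-21 (0.56 ± 0.11). RAD17, which loads the 9-1-1 clamp, was lower in EFO-21 (-0.37 ± 0.10).

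The 3 subunits of the 9-1-1 clamp were lower in resistant Kuramochi, with HUS1 at -0.89 ± 0.09 (adjusted p = 0.000511), RAD9A at -0.79 ± 0.12 (adjusted p = 0.00294) and RAD1 at -0.33 ± 0.07 (adjusted p = 0.00769). HUS1 was the only gene of the 54 called lower in 3 lines, as were 5.25% of all genes in 3 or more. Its values went from 6.81, 6.89 and 6.93 to 5.94, 5.95 and 6.05 in Kuramochi, from 7.17, 7.20 and 7.30 to 6.73, 6.96 and 6.97 in OVSAHO, from 6.60 and 6.75 to 6.23, 6.32 and 6.33 in OV-90 and from 6.49 in all 3 libraries to 6.07, 6.16 and 6.31 in EFO-21. No groups overlapped, and the OV-90 difference of -0.38 ± 0.11 missed the threshold (adjusted p = 0.0536). RAD1 was also lower in EFO-21 (-0.55 ± 0.09), whereas RAD9A was lower in OV-90 (-0.37 ± 0.10) and higher in EFO-21 (0.26 ± 0.07). Its OV-90 call was lost after correction for length and GC (-0.13, adjusted p = 0.35), and the difference was -0.35 against parental library 3 alone.

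The fork protection genes, which link the helicase to the polymerases and pass the ATR signal to CHK1, rose together in OVSAHO, with CLSPN at 0.62 ± 0.06, TIPIN at 0.52 ± 0.05 and TIMELESS at 0.37 ± 0.04 (adjusted p = 0.00147, 0.00118 and 0.00232). In EFO-21 CLSPN was higher (0.28 ± 0.09) and TIMELESS lower (-0.38 ± 0.04). None of the 3 was called in Kuramochi or OV-90, where with the 23 libraries in one fit CLSPN (0.36, adjusted p = 0.0156), TIMELESS (0.33, 0.00747) and TIPIN (-0.39, 0.00268) were called. After correction for length and GC none of the 3 was called in OV-90. The differences were then -0.19 for CLSPN (adjusted p = 0.103), 0.10 for TIMELESS (0.584) and -0.41 for TIPIN (0.0729). CHEK2, the gene of CHK2, was lower in OVSAHO (-0.25 ± 0.05) and OV-90 (-0.66 ± 0.13), with -0.36 ± 0.14 in Kuramochi (adjusted p = 0.0808) and 0.05 ± 0.11 in EFO-21.

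PRIMPOL, a primase that restarts synthesis past an obstacle, showed the largest rise of the 54 genes in Kuramochi, from 5.34, 5.37 and 5.42 to 6.45, 6.57 and 6.70. The change was 1.20 ± 0.11 (2.3-fold, adjusted p = 0.000361). In EFO-21 it went from 4.49, 5.01 and 5.11 to 5.42, 5.68 and 5.71 (0.74 ± 0.20, adjusted p = 0.0236), a call lost without resistant library 23 (0.0747) or 24 (0.072). In OVSAHO the values were 5.26, 5.33 and 5.39 against 5.46, 5.59 and 5.70, and in OV-90 6.04 and 6.13 against 5.70, 5.79 and 5.95, with no call in either. PRIMPOL lies at chr4:185570821-185616117 on the plus strand of GRCh37. Among the other fork restart genes, MCM8 was lower in Kuramochi (-0.86 ± 0.11) and higher in EFO-21 (0.73 ± 0.10), the fork remodeller SMARCAL1 was higher in EFO-21 (0.23 ± 0.06), and ZRANB3 was lower in OVSAHO (-0.39 ± 0.08) with differences below 0 in every line.

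**Figure D3:**
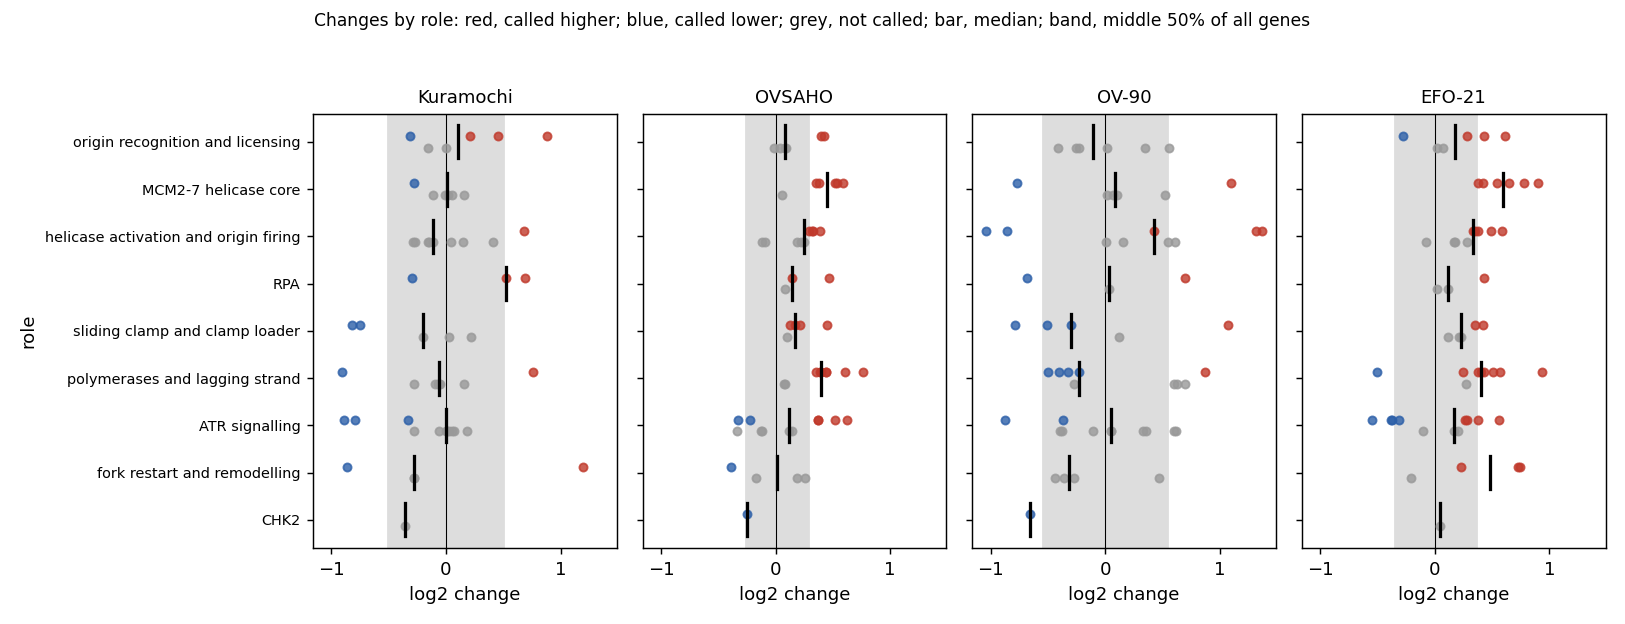
Log2 change, resistant minus parental, of each gene (points) by role in each line, with called genes in red or blue, a black bar at the median of the role and a grey band over the interquartile range of all 21658 genes. The MCM2-7 medians are 0.45 in OVSAHO and 0.60 in EFO-21, where 5 and 6 of the 6 genes are red, while in Kuramochi and OV-90 the points of most roles fall on either side of 0.

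Over the 4 lines, 49 of the 54 genes were called in at least 1 line, against 84.6% of all genes, and 5 in none (ORC1, GINS3, CDC7, DBF4 and ATR). In opposite directions in different lines were 16 genes (29.6%), against 25.4% of all genes, and both shares lie near those of the whole table. This count was 12 with a weight for each group's spread and 22 after correction for length and GC. Called higher in both OVSAHO and EFO-21 were 20 genes, which are 37% of the 54 against 6.6% of all genes, with 28 called higher in the first line and 31 in the other. The change differed between lines for 46 genes, against 75.1% of all genes, and 85.2% of the 54 thus stand beside a share of the whole table that is also high. In a fit with the cell line as an additive term, 20 genes were higher on average, against 16.4% of all genes, and 4 lower, against 16.6%. The 20 were led by GINS4 (0.64 ± 0.10), POLE (0.58 ± 0.10), MCM4 (0.55 ± 0.12), RPA1 and PRIMPOL (0.52 ± 0.14), and the 4 were HUS1 (-0.48 ± 0.07), ZRANB3 (-0.31 ± 0.07), CHEK2 (-0.29 ± 0.08) and RAD1 (-0.22 ± 0.07).

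Each line was also set against the mean of the other 3. The change in Kuramochi was the more negative for 23 genes (42.6% of the 54), against 27.3% of all genes. It was the more positive for 6 (11.1%), against 26.8%. RFC3 (-1.39 ± 0.16), MCM8 (-1.32 ± 0.15), LIG1 (-0.96 ± 0.06) and MCM2 (-0.93 ± 0.12) stood furthest below, and PRIMPOL (0.96 ± 0.16), PRIM1 (0.95 ± 0.12) and RPA3 (0.86 ± 0.13) furthest above. In OVSAHO 17 genes (31.5%) were above, against 15.4% of all genes, and 4 (7.41%) below, against 15%. GMNN (0.64 ± 0.10), TIPIN (0.56 ± 0.10) and CDC45 (0.56 ± 0.11) were in front. In EFO-21 20 were above, against 20.3%, and 6 below, against 21.8%, among them MCM8 (0.80 ± 0.15) and LIG1 (0.79 ± 0.06) above and PRIM1 (-0.74 ± 0.12) and TIMELESS (-0.63 ± 0.10) below. In OV-90 22 (40.7%) were below, against 23.6% of all genes, and 12 (22.2%) above, against 26.7%. GINS2 (-1.24 ± 0.16), CDC45 (-1.21 ± 0.12) and MCM5 (-1.11 ± 0.06) were below and GINS1 (1.20 ± 0.20) and RFC3 (1.14 ± 0.17) above.

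The OV-90 calls rest on few libraries and move with transcript length. Without resistant library 13, 14 or 15 the fit called 0 genes higher and 0, 1 and 1 lower, and with a weight for each group's spread 1 higher and 3 lower. A fit with 1 parental library measures no parental scatter, so no calls are counted from it. Among the 17 calls lost with that weight were MCM4 (adjusted p = 0.0534), GINS1 (0.0529), RFC3 (0.0709) and MCM10 (0.102), and kept were MCM5, CDC45, GINS2 and GINS4. In parental OV-90 the median SD over all genes was 0.257, against 0.114 in resistant OV-90. Parental Kuramochi was also more scattered than resistant Kuramochi (0.221 against 0.154). Against parental libraries 2 and 3 taken singly, 45 of the 54 differences had the same sign.

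Over the 19085 genes with a canonical transcript (88.1%, and all 54 genes here), the OV-90 change had a median of 0.51 in the 20% with the longest transcripts and -0.52 in the 20% with the shortest, where parental library 2 differed from library 3 by -0.27 and 0.30. By GC content the OV-90 medians were 0.36 in the 20% with the lowest and -0.29 in the 20% with the highest GC. The corresponding length medians were 0.19 and -0.13 in OVSAHO, 0.09 and -0.11 in EFO-21 and -0.02 and -0.09 in Kuramochi. The OV-90 genes called higher had a median length of 4062 nt and those called lower 1950 nt, where all 54 had 3208 nt and all genes 2769 nt.

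After each library was corrected for the trend with length and GC, OV-90 had 6 genes called higher and 16 lower, 15 of them called the same way as before, and the median change was -0.15. GINS1 (1.13, adjusted p = 0.0246) and GINS4 (1.13, adjusted p = 0.0139) stayed past 2-fold, MCM4 (0.88), RFC3 (0.90), RPA1 (0.41) and CDC45 (-0.91) stayed called below it, and ATR (0.01) and MCM10 (0.10, adjusted p = 0.303) were near 0. In OVSAHO the correction left 30 genes higher and 7 lower and in EFO-21 37 higher and 5 lower, with medians of 0.19 and 0.32. No shares of all genes are given under the correction, so these counts cannot be set beside them. The part that length or GC has in any of these changes was not tested.

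**Figure D4:**
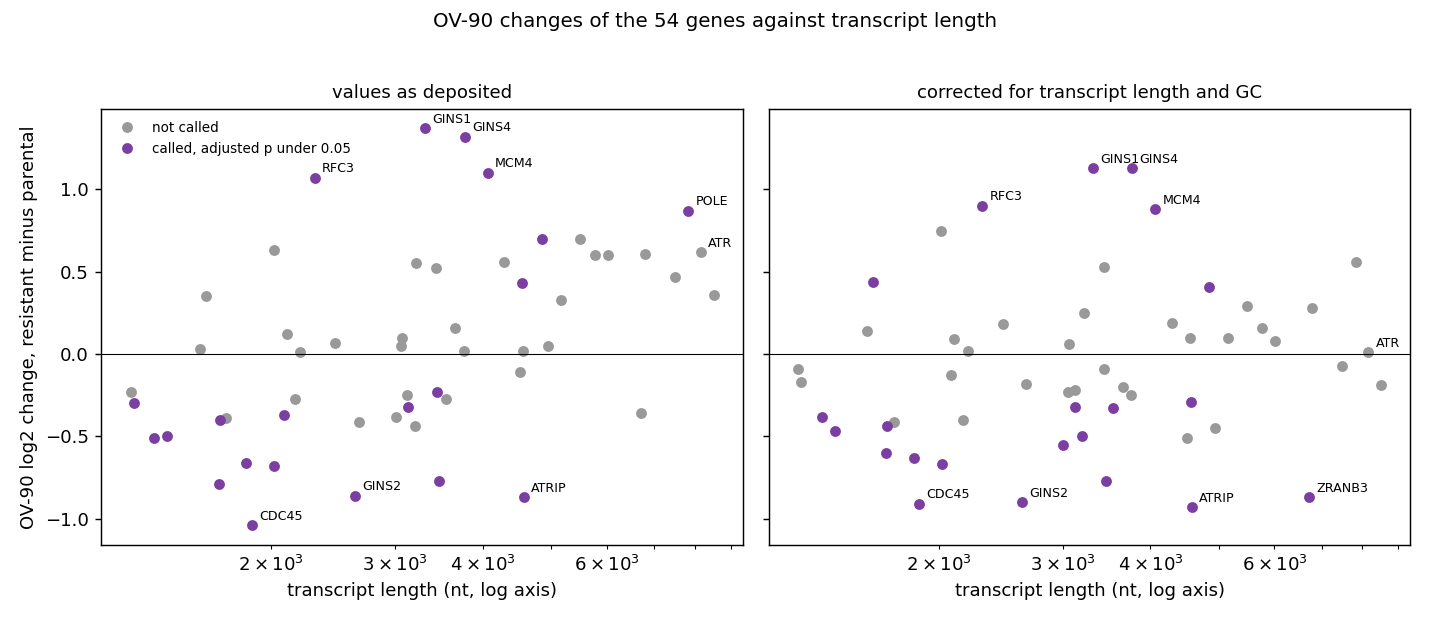
OV-90 log2 change, resistant minus parental, of the 54 genes against the length of the canonical transcript (nt, log axis), as deposited (left) and after correction for length and GC in each library (right), with called genes in purple. The long transcripts POLE and ATR, at 0.87 and 0.62 on the left, are at 0.56 and 0.01 on the right, while GINS1 and GINS4 stay above 1.

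The genes with an E2F word in a promoter window and those without one had nearly the same median change in Kuramochi (-0.06 for both), and 0.05 against -0.03 in OV-90. In OVSAHO 15 of the 22 genes with a word were called higher and none lower, with a median of 0.38, against 9 higher and 3 lower of 26 without a word and a median of 0.10. In EFO-21 17 of 22 were called higher and 1 lower (median 0.41), against 11 and 4 of 26 (median 0.21). These are descriptions of 48 genes, and no test of the word was made.

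Before resistance the lines already differed in these genes. Parental levels were called different with at least 2-fold between the highest and the lowest line for 29 of the 54 genes, a smaller share (53.7%) than the 79.7% of all genes. The latter include weakly expressed genes, and a share at matched expression was not taken. POLD1 differed most, from 6.89 in EFO-21 to 9.06 in OV-90 (range 2.17), followed by RFC2 (6.23 in EFO-21 to 8.30 in OVSAHO, range 2.07), POLE2 (4.99 in Kuramochi to 7.01 in OV-90, range 2.02) and RFC3 (7.05 in OVSAHO to 9.05 in Kuramochi, range 2.00). Among the 29, OV-90 was the highest line for 12 and OVSAHO for 11, and EFO-21 was the lowest for 11 and Kuramochi for 9. The OV-90 means rest on 2 libraries whose difference moved with transcript length and GC. MCM6 had a range of 0.10 and was not called (adjusted p = 0.858).

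Other genes of the same processes, outside the 54, are given by list. Of 26 other fork genes measured, 6 were called higher and 7 lower in Kuramochi, 6 and 3 in OVSAHO, 5 and 2 in OV-90 and 11 and 6 in EFO-21, with median differences of 0.07, 0.04, 0.15 and 0.12. The shares of all genes called higher and lower were 23.6% and 23.3% in Kuramochi and 17.1% and 16.2% in OVSAHO. They were 18.1% and 17.9% in OV-90 and 25% and 23.4% in EFO-21. The translocase HLTF, a fork remodeller, rose by 1.5 ± 0.29 in OV-90 (0.99 after correction for length and GC), and CHTF18, a subunit of an alternative clamp loader, by 1.35 ± 0.04 in EFO-21. CHEK1, the gene of the drug target, rose in Kuramochi from 6.65, 6.79 and 6.81 to 9.34, 9.37 and 9.42 (2.63 ± 0.07, adjusted p = 6.25e-06) and differed by -0.10 to 0.07 in the other lines, with no call, though in OV-90 it was called lower after correction for length and GC (-0.43, adjusted p = 0.0273).

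A list of 16 genes held CHEK1, the CDC25 phosphatases that CHK1 acts on, the kinases WEE1 and PKMYT1, CDK1 and CDK2, cyclins and E2F genes. Of these, 3 were higher and 6 lower in Kuramochi, 6 and 3 in OVSAHO, 6 and 2 in OV-90 and 7 and 2 in EFO-21. The shares of all genes to set beside these counts are those given with the other fork genes. Past 2-fold were CHEK1 (2.63 ± 0.07), CDK1 (1.01 ± 0.06) and E2F2 (-1.22 ± 0.16) in Kuramochi, WEE1 (1.43 ± 0.14), CCNE2 (1.29 ± 0.18), E2F3 (1.48 ± 0.31) and E2F7 (1.64 ± 0.30) in OV-90, and PKMYT1 (1.07 ± 0.06) and CCNA2 (-1.05 ± 0.06) in EFO-21. E2F1, an activator of replication genes, was higher in OVSAHO (0.26 ± 0.05) and EFO-21 (0.69 ± 0.05), with 0.11 ± 0.07 in Kuramochi and 0.09 ± 0.06 in OV-90.

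Beside the fork genes, 10 markers of G2/M cells were examined, and their medians were 0.03 in Kuramochi, 0.03 in OVSAHO, 0.02 in OV-90 and 0.18 in EFO-21. In OVSAHO 2 of them were called higher and 1 lower, in EFO-21 7 and 3, in Kuramochi 3 and 1, and in OV-90 3 and 3. The same shares of all genes apply here as for the other fork genes. The 3 higher in OV-90 were TOP2A (1.62 ± 0.41), MKI67 (1.43 ± 0.38) and CENPF (1.37 ± 0.36), which were at 1.13, 0.81 and 0.69 after correction for length and GC, with adjusted p of 0.0427, 0.0727 and 0.0726. Of 5 blood and vessel markers none was called higher in Kuramochi, OV-90 or EFO-21 and 1, PECAM1, in OVSAHO, where all its libraries lay in the lowest 10% of values. PECAM1 stood at 8.48 in parental EFO-21 and 6.35 in parental OV-90 and fell in the latter to 3.46.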

How the data were processed

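RNA of 23 libraries was sequenced on a stranded mRNA kit. The authors aligned reads to GRCh37/hg19, derived 1 value per gene from its exons and quantile normalized the libraries, and the deposited values are on the log2 scale. The table holds no counts, so depth is unknown and errors come from the scatter of libraries within a group. Quantile normalization hides a shift shared by nearly all genes. Columns name the line and state but no replicate number, and 0 columns stayed unmapped.

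Each line was fitted with limma 3.58.1 in R 4.3.3 (linear models with empirical Bayes variances that follow the mean, two-sided, Benjamini-Hochberg over 21658 genes, no filter and no pseudocount), because 3 against 3 libraries cannot give an exact permutation p below 0.1. A fit of 8 group means gave the difference between lines (F test), and an additive cell line term the average change. P-values of the fits by line and of the difference between lines measure the scatter between replicate cultures. The fit of 8 group means shares 1 spread over all groups for each gene, which can understate the scatter of parental OV-90. P-values of the average change also take in the differences between lines in the change. They count the 23 libraries, and not the 4 lines, as replicates. The code was tested on simulated data. Values are shown for each library of the genes changed at least 2-fold and of RPA1, RPA2, MCM2, MCM7, MCM10 and ATR, and HUS1 was added after its values were seen. Other genes were named by a call in 3 lines or in opposite directions, or as examples of their role chosen after their values were seen. The members and lists were chosen with earlier results of these data known. Lengths and GC came from canonical GENCODE transcripts lifted to GRCh37, matched by symbol. In 1 alternative the linear trend of each library's deviation from the gene mean on log2 length and GC was removed. This and the weights for group spread were chosen after seeing the data.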

Additional observations from a re-analysis of the deposited data

Results flagged for a closer look

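The change between resistant and parental cells differed between the lines for 46 of the 54 genes by the F test of the 8 group means, that is 85.2% of them against 75.1% of all genes. Of the 54 genes, those shown by library had ranges of the 4 log2 changes of 1.90 for RFC3, 1.53 for GINS1, 1.47 for PRIMPOL and 1.37 for CDC45. The range was 1.21 for MCM4, 1.18 for MCM2, 1.0 for GINS4, 0.59 for MCM10 and HUS1, 0.42 for RPA2 and 0.39 for MCM7. Each of these genes was past the threshold of that test. RPA1 (range 0.27) and ATR (range 0.56) were not past it. Groups of 2 or 3 libraries are too small for a check of single outlying libraries.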

How the results depend on the processing

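No paired analysis was possible because the columns of the table carry a library number but no replicate number. With a change of at least 1.5-fold asked for as well, the counts of the 54 genes called higher and lower were 5 and 6 in Kuramochi, 4 and 0 in OVSAHO, 6 and 7 in OV-90 and 8 and 0 in EFO-21, and at 2-fold they were 1 and 0, 0 and 0, 4 and 1, and 0 and 0. With the 23 libraries in one fit OV-90 had 20 called higher and 22 lower and OVSAHO 2 lower, since the spread was then shared over all groups. A weight for each group's spread left 1 higher and 3 lower in OV-90, and leaving out weakly expressed genes gave 13 higher. Correction for transcript length and GC gave 7 lower in OVSAHO and a median of -0.15 in OV-90. No share of all genes is given under these alternatives, so their counts have none to stand beside. Leaving out 1 library at a time, the calls lower ranged from 1 to 3 in OVSAHO and from 3 to 5 in EFO-21, and in OV-90 the calls ranged from 0 to 25 higher and from 0 to 21 lower. Over all fits without 1 library the median change ranged from 0.20 to 0.27 in OVSAHO (0.27 without parental library 9) and from 0.29 to 0.33 in EFO-21 (0.33 without resistant library 22). In OV-90 it ranged from -0.13 (without parental library 2) to 0.20 (without parental library 3). The cause of these shifts was not tested beyond what each alternative changes. Under the remaining alternatives the counts stayed within 1.5 times, the calls higher ranging from 22 to 27 in OVSAHO and from 26 to 33 in EFO-21 when 1 library was left out, and the genes whose change differed between lines from 43 to 50. No gene of the 54 called as reported had the other sign under any of these alternatives in its line, and 1 gene with no call, CDC6 in OV-90 (0.02), was called lower after the correction (-0.29). Without counts, the spread of 2 or 3 libraries sets what could be detected, least well in parental OV-90.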
